A study of Mus musculus with 9 samples.

Results

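The 8 genes described here, Hnf4a, Hnf4g, Cdx1, Cdx2, Gata4, Gata5, Gata6 and Klf5, encode transcription factors known for setting or keeping intestinal epithelial identity. They were picked by name, with earlier results of these data known, as the rows of the deposited GRO-seq table that carry these symbols, out of 24505 genes listed. All 8 passed the filter on low values and were among the 16563 genes tested. The study measured mini-gut cultures from mouse duodenum, that is, small pieces of gut epithelium grown in a dish. GRO-seq, in which polymerases already engaged on genes extend labelled RNA in isolated nuclei, covered 3 cultures with 2 libraries each. They are RANKL, labelled as intestinal M cell, ENRI, labelled as enterocyte, and WENRC, labelled as intestinal stem cell. H3K27me3, a repressive histone mark of the Polycomb system, was mapped by ChIP-seq in RANKL with 2 libraries, pooled by the authors, and WENRC with 1. The culture names are abbreviations that the labels leave unexplained, and no strain, age, genotype, dose or culture time is given there. ENRI and WENRC libraries carry the number of the mouse they came from, 1 or 2, while the RANKL libraries carry a replicate number only. The p-values therefore measure the spread between these libraries, which for RANKL may be technical.

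HNF4A and HNF4G are paired nuclear receptors that bind the same DNA element and drive genes of the brush border and of fat handling in villus enterocytes. CDX1 and CDX2 are homeobox proteins of the posterior gut, and loss of CDX2 is known to turn intestinal epithelium towards a stomach-like state. GATA4 marks the proximal small intestine, where it holds jejunal genes on and ileal genes off, GATA6 acts along the whole length and in the crypt, and GATA5 is the third endoderm member of that family. KLF5 is a zinc finger protein of dividing crypt cells. M cells, the antigen-sampling cells of the lining over lymphoid follicles, arise from the same stem cells after the cytokine RANKL reaches the epithelium.

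Of the 8 genes, Hnf4g and Cdx1 set the cultures apart most. Hnf4g was lower in WENRC, by -1.68 on the log2 scale against ENRI and by 1.79 against RANKL, while RANKL and ENRI overlapped. Cdx1 was higher in RANKL than in ENRI by 1.20 and than in WENRC by 1.19. Gata4 was higher in RANKL than in WENRC by 1.03, and Gata5 was lower in RANKL than in ENRI by 1.01. Hnf4a, Cdx2, Gata6 and Klf5 passed the test in no comparison. All values are the authors' normalised log2 values, in which genes with few reads are drawn together, and a call is an adjusted p under 0.05 in limma over all tested genes.

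In RANKL against ENRI the test called 2 of the 8 genes, 1 higher and 1 lower. Over all tested genes, the shares with a higher and a lower call were 10.4% and 10.5%. For RANKL against WENRC the test called 3 of 8, all higher, beside 8.53% of all genes higher and 3.62% lower. In WENRC against ENRI it called 1 of 8, lower, beside 4.85% higher and 9.74% lower, and with the mouse number as a block it called 2. Other scalings moved the balance of calls over all genes: calls in RANKL against WENRC were higher in 70.2% of cases, and in 53.3% after recentring on upper quartiles and 58.7% after quantile normalization. In WENRC against ENRI these shares were 33.2%, 54.1% and 51.7%. The median change of the 8 was 0.14, 0.57 and -0.36 in the 3 comparisons, while the median of all tested genes lay between -0.01 and 0.00. The libraries of the cultures compared did not overlap for 5, 8 and 5 of the 8 genes, and the same held for 64.7%, 68.6% and 58.5% of all tested genes. Non-overlap of 2 libraries with 2 was therefore common and is given below as a description only.

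Some facts of the whole series bear on these values. Replicates differed least in RANKL, with an SD across genes of 0.220 for the difference between the libraries, then in WENRC with 0.421 and in ENRI with 0.699. The second library was above the first for 7 of the 8 genes in ENRI, for 7 in RANKL and for 1 in WENRC. By their names in the header, the RANKL libraries combine reads from sequencing done again and the other 4 do not, so RANKL and its sequencing batch cannot be told apart. The mouse 1 libraries of ENRI and WENRC differed from the other 4 in Xist and Ddx3y, genes of the X and Y chromosomes. Xist read 4.52 and 5.42 in these mouse 1 libraries and from 10.90 to 12.18 in the other 4. Ddx3y read 8.495 and 8.29 in them and from 3.28 to 3.60 in the other 4. The part of this difference in the replicate spread was not tested. The labelled cell types showed in fixed marker lists: all 10 M cell markers were higher in RANKL than in ENRI and 9 of 10 than in WENRC, 8 of 10 stem cell markers were higher in WENRC than in ENRI, and 8 of 10 enterocyte markers were lower there. In RANKL against WENRC 1 of 10 stem cell markers was higher and 1 lower (median -0.07), and 5 of 10 were higher in RANKL than in ENRI (median 1.28). Markers of other epithelial cells moved too: 4 of 8 Paneth cell markers were higher in RANKL than in either other culture, and 4 of 8 goblet cell markers higher than in WENRC. Of 5 tested tuft cell markers, 2 were higher in RANKL than in ENRI and 1 than in WENRC. Of 7 fibroblast markers, Pdgfrb alone passed the filter and was 1.94 higher in RANKL than in ENRI and 2.45 higher than in WENRC, and no tested blood or endothelial marker was called. In bulk cultures, fewer cells of a type and less transcription per cell cannot be told apart.

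**Figure D1:**
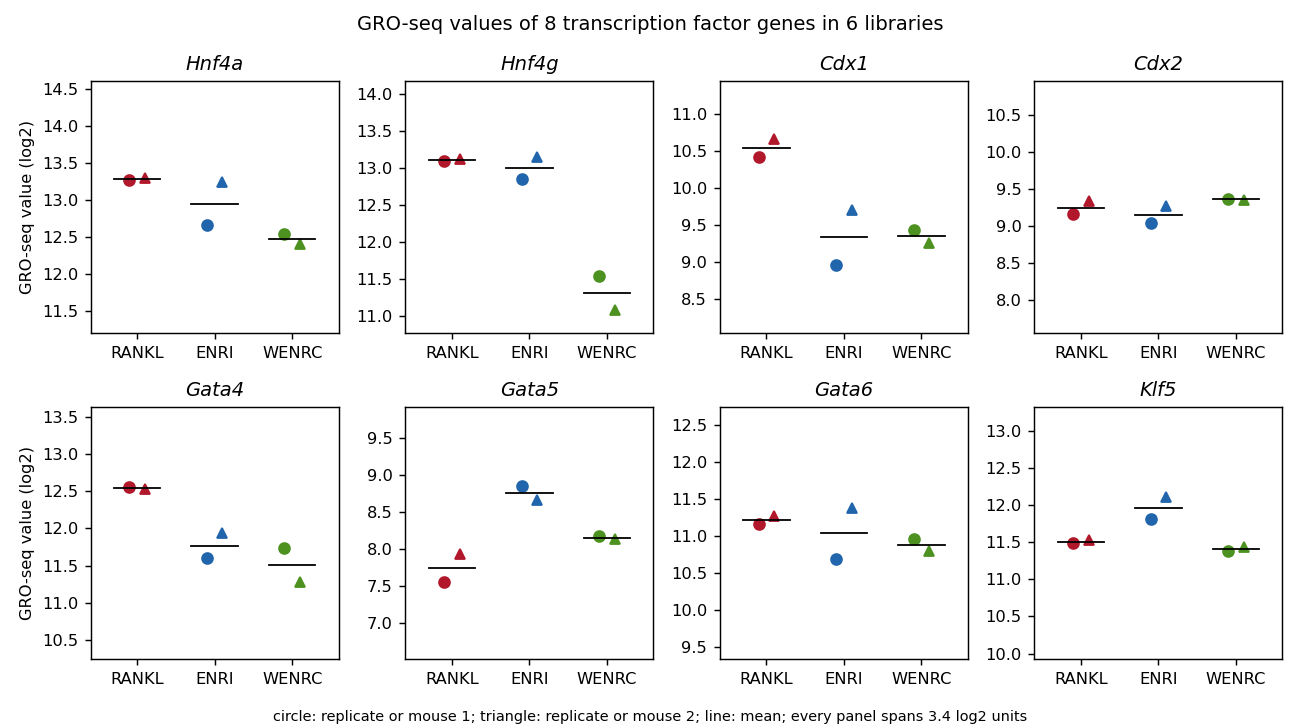
GRO-seq values (log2, deposited) of the 8 genes in the 2 RANKL, 2 ENRI and 2 WENRC libraries, with the mean as a line and every panel spanning the same range. The WENRC points of Hnf4g (11.54 and 11.08) and the RANKL points of Cdx1 (10.41 and 10.66) stand apart from the other 4 libraries of their panels.

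Promoter windows from RefSeq are shown for 3 of the 8 genes, so that the letters near the start sites can be read beside the values. Hnf4a has windows at both of its starts, Cdx2 is the gene with the flattest values, and Gata5 is the gene that was lower in RANKL. Each window is 300 bases long, in GRCm38.p6 and 5′ to 3′ on the strand of the gene. Capitals mark matches on either strand to 3 motifs: AGATAA, known from GATA factors, GTTAAT, known from HNF1 factors, and GGGNGGG, known from KLF and SP factors, where N is any base. Overlapping KLF matches form 1 run of capitals. The motifs TTTATNG, known from CDX factors, and CAAAGTC, known from HNF4, were searched too and gave no match in these windows.
Hnf4a, upstream start, chr2:163506607-163506906, plus strand: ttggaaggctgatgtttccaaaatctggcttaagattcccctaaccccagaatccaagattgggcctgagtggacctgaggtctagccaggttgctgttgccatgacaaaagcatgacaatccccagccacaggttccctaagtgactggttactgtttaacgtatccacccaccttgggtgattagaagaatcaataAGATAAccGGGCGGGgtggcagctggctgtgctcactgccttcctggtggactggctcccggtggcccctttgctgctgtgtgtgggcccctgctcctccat
Hnf4a, downstream start, chr2:163546905-163547204, plus strand: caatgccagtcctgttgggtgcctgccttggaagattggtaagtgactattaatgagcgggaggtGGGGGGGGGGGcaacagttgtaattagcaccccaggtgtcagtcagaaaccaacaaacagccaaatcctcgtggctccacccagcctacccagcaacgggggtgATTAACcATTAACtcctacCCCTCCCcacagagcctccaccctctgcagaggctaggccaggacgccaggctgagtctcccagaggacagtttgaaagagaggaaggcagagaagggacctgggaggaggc
Cdx2, chr5:147307200-147307499, minus strand: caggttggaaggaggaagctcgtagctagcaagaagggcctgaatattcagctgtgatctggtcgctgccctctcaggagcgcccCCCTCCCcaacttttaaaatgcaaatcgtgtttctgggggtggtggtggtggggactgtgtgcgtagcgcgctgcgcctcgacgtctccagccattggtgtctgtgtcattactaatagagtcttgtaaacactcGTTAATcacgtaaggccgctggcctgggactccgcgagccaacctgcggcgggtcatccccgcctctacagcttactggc
Gata5, chr2:180334630-180334929, minus strand: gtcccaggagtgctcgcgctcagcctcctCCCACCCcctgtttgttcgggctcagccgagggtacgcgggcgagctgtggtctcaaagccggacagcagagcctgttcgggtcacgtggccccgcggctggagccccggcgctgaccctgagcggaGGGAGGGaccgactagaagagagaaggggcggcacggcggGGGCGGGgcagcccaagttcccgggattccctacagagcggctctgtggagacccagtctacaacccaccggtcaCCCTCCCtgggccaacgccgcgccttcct

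The upstream window of Hnf4a held 1 AGATAA at position -52 from the start and 1 KLF match at -44. Its downstream window held a pair of adjoining HNF1 matches at -81 and -74, a KLF match at -62 and a run of guanines that matches the KLF letters from -185 to -181. The Cdx2 window held 1 HNF1 match at -30 and 1 KLF match at -165. The Gata5 window held 4 KLF matches, at -221, -94, -54 and 21, and was rich in CpG, with 26 CpG pairs and 69.7% G and C, against 18 pairs for Cdx2 and 4 for each Hnf4a window. Of 32851 promoter windows of the same length, 11.2% held AGATAA, 7.10% GTTAAT, 48.1% GGGNGGG, 10.9% TTTATNG and 4.44% CAAAGTC, and the median window had 7 CpG pairs. A match is a run of letters and not a shown binding site. GRO-seq gave 1 value per gene over the whole transcript, so the 2 starts of Hnf4a, which lie 40.3 kb apart, were not separated.

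Hnf4g (NM_013920; mm9, chromosome 3, 3508030 to 3659800, plus strand) read 13.09 and 13.11 in RANKL. It read 12.85 and 13.14 in ENRI, and 11.54 and 11.08 in WENRC. The RANKL and ENRI libraries overlapped, and both WENRC libraries lay more than 1 log2 unit below all others. The change was 1.79 ± 0.21 (SE, n = 2 against 2) from WENRC to RANKL, with an adjusted p of 0.00751 in limma. WENRC lay below ENRI by -1.68 ± 0.21 (95% interval -2.21 to -1.16, limma adjusted p 0.0115). Within mouse 1 the WENRC value was -1.31 from the ENRI value, and within mouse 2 it was -2.06. RANKL and ENRI differed by 0.10, with a 95% interval of -0.42 to 0.63, so a difference of up to 0.63 remained possible. With only the 4 ENRI and WENRC libraries the call against ENRI was lost (limma adjusted p 0.0660, range over 15 alternatives 7.24e-07 to 0.0968). The summed level of the enterocyte markers ran the same way, between 12.85 and 13.65 in WENRC, 15.01 and 15.15 in RANKL and 15.82 and 16.61 in ENRI (log2 of the sum), and its part in the Hnf4g difference was not tested.

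Hnf4a (NM_001312906; chromosome 2, 163332593 to 163398643, plus strand) read 13.26 and 13.30 in RANKL, 12.66 and 13.23 in ENRI, and 12.55 and 12.41 in WENRC. RANKL was above both other cultures in every library, and ENRI above WENRC, with the first ENRI library only just above the WENRC libraries. None of these differences passed the test over 6 libraries. RANKL against WENRC came to 0.80 ± 0.23 (SE, limma adjusted p 0.0785), RANKL against ENRI to 0.33 (0.355) and WENRC against ENRI to -0.47 (0.216). When only the 4 RANKL and WENRC libraries were fitted, the Hnf4a difference was called (limma adjusted p 0.00361), and the authors' deposited table also calls it, with an adjusted p of 8.25e-14. Quantile normalization took it from 0.80 to 0.17, and over 15 alternatives its adjusted p ran from 8.25e-14 to 0.584 with a call in 6. The difference from ENRI was 0.044 without ENRI library 1 and 0.61 without ENRI library 2, where it was called (limma adjusted p 0.0271, range over 15 alternatives 0.0271 to 0.848).

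Hnf4a shares part of its body with an antisense gene, Hnf4aos, on the minus strand, and the strand handling of the counts is not stated. Their shared stretch covered 52.8% of Hnf4a, so reads of the pair may be mixed. Hnf4aos averaged 12.03 in RANKL and 12.14 in ENRI, with ENRI libraries at 11.63 and 12.65, and 10.94 in WENRC. Its changes were 1.09 in RANKL against WENRC (limma adjusted p 0.0837) and -1.20 in WENRC against ENRI (0.0583). The authors' deposited table calls Hnf4aos in both, at 1.22 (authors' adjusted p 2.7e-21) and -1.46 (0.00814).

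Length matters when levels of different genes are compared, so these were set per kilobase of gene. On the log2 value per kb, Hnf4g lay below Hnf4a in every library. The difference Hnf4g minus Hnf4a was -1.38 in both RANKL libraries, -1.02 and -1.29 in ENRI, and -2.21 and -2.52 in WENRC. The difference in WENRC was -1.21 from that in ENRI, and that in RANKL was 0.99 above WENRC, with no overlap between WENRC and the other libraries. Without division by length, Hnf4g minus Hnf4a in ENRI turns to 0.05, because Hnf4g is the longer gene (151770 bp against 66050 bp).

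Cdx1 (NM_009880; chromosome 18, 61178516 to 61195853, minus strand) read 10.41 and 10.66 in RANKL. It read 8.97 and 9.71 in ENRI, and 9.44 and 9.26 in WENRC. Both RANKL libraries were above all 4 others, and the ENRI libraries enclosed the WENRC libraries. The change was 1.20 ± 0.26 (SE, n = 2 against 2) over ENRI, with a limma adjusted p of 0.0264. Over WENRC it was 1.19 ± 0.26, with an adjusted p of 0.0375. WENRC and ENRI differed by 0.01, with a 95% interval of -0.62 to 0.64, and the 2 mice went opposite ways, at 0.47 and -0.45. With only the 4 libraries compared, the call over ENRI was lost (limma adjusted p 0.0631), and after recentring on upper quartiles or quantile normalization the call over WENRC was lost (0.0536 and 0.0554); over 15 alternatives Cdx1 was called in 10 and in 9, with adjusted p from 0.000751 to 0.194 and from 9.09e-13 to 0.277.

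Cdx2 (NM_007673; chromosome 5, 148112476 to 148118825, minus strand) read 9.15 and 9.34 in RANKL, 9.04 and 9.27 in ENRI, and 9.37 and 9.35 in WENRC. RANKL and ENRI overlapped, and WENRC lay just above both. Its differences were 0.10 in RANKL against ENRI, -0.11 in RANKL against WENRC (95% interval -0.48 to 0.25) and 0.21 in WENRC against ENRI. None was called by limma in any of 15 alternatives. Per kilobase, Cdx1 lay just under Cdx2 in RANKL, with differences of -0.19 and -0.13 on the log2 scale. The gap was -1.52 and -1.01 in ENRI and -1.38 and -1.55 in WENRC, so that the RANKL libraries did not overlap the others. Without division by length, Cdx1 minus Cdx2 is positive in RANKL (1.29) and in ENRI (0.19).

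**Figure D2:**
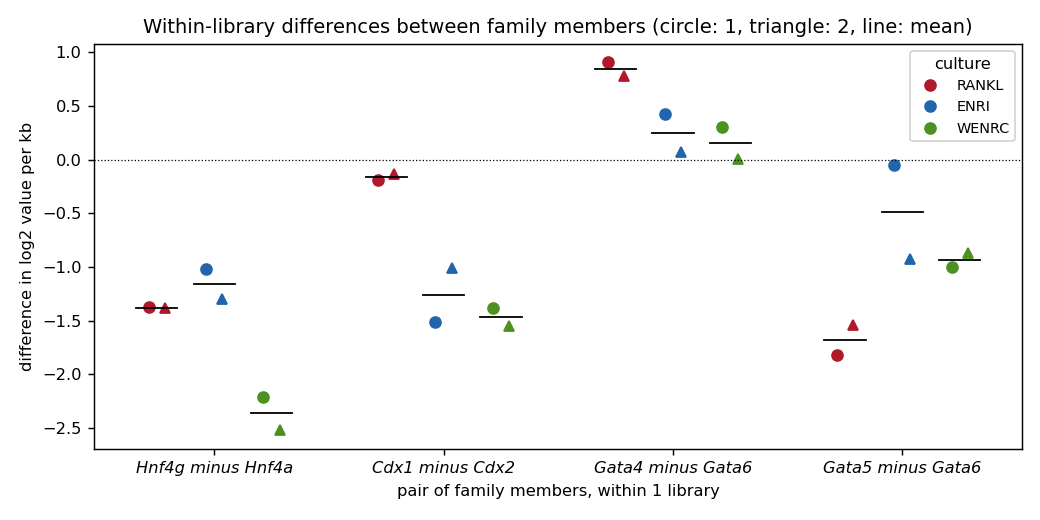
Difference between family members within each library, on the log2 value per kb of gene, with the mean of each culture as a line. Hnf4g minus Hnf4a is lowest in WENRC (-2.21 and -2.52), and Cdx1 minus Cdx2 is nearest to 0 in RANKL (-0.19 and -0.13).

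Gata4 (NM_001310610; chromosome 14, 63817751 to 63864108, minus strand) read 12.55 and 12.53 in RANKL. It read 11.60 and 11.93 in ENRI, and 11.74 and 11.28 in WENRC. The RANKL libraries were above the other 4, whose ranges overlapped. Gata4 rose by 1.03 ± 0.21 (SE, n = 2 against 2) from WENRC to RANKL, with a limma adjusted p of 0.0322. Over ENRI the difference was 0.78 ± 0.21 and missed the threshold (adjusted p 0.0506). With the mouse number as a block it passed (limma adjusted p 0.0437), as it did in the authors' deposited table (0.0141), and over 15 alternatives it ran from 0.0136 to 0.262. Quantile normalization took the difference over WENRC to 0.57 and ended its call (limma adjusted p 0.0691). WENRC and ENRI differed by -0.25, with 0.14 within mouse 1 and -0.65 within mouse 2.

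Gata5 (NM_008093; chromosome 2, 180059793 to 180069384, minus strand) read 7.55 and 7.93 in RANKL, 8.85 and 8.66 in ENRI, and 8.17 and 8.14 in WENRC. The 3 cultures did not overlap, and RANKL was lowest. RANKL against ENRI was -1.01 ± 0.18 (SE, n = 2 against 2), with a limma adjusted p of 0.0159. The other comparisons did not pass, at -0.41 for RANKL against WENRC (adjusted p 0.197) and -0.60 for WENRC against ENRI (0.0768), although both mice showed the latter direction (-0.68 and -0.53). Gata5os, the antisense gene that shares 19.0% of Gata5, averaged 5.89 in RANKL, 6.86 in ENRI and 6.41 in WENRC, and its own change against ENRI was -0.97 (limma adjusted p 0.0224).

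Gata6 (NM_010258; chromosome 18, 11052508 to 11085633, plus strand) read 11.16 and 11.26 in RANKL, 10.69 and 11.38 in ENRI, and 10.96 and 10.80 in WENRC. The ENRI libraries enclosed all 4 others. Its differences were 0.18, 0.34 and -0.16 in RANKL against ENRI, RANKL against WENRC and WENRC against ENRI, with none called by limma. The authors' deposited table calls Gata6 higher in RANKL than in WENRC, with an adjusted p of 0.0363. Its antisense neighbour 1010001N08Rik shares 58 bp with it at the start.

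Within the family, Gata4 minus Gata6 per kb was 0.91 and 0.78 in RANKL, 0.42 and 0.07 in ENRI, and 0.30 and 0.00 in WENRC. Gata5 minus Gata6 was -1.82 and -1.54 in RANKL, -0.05 and -0.93 in ENRI, and -0.999 and -0.87 in WENRC. In RANKL the order Gata4, Gata6, Gata5 was thus spread over a wider range than in either other culture, and for both pairs no RANKL library overlapped another. For the pair Gata5 and Gata6, the ENRI libraries enclosed 1 of the 2 WENRC libraries.

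Klf5 (NM_009769; chromosome 14, 99697910 to 99712628, plus strand) read 11.48 and 11.53 in RANKL, 11.82 and 12.11 in ENRI, and 11.38 and 11.44 in WENRC. ENRI was above both other cultures in every library, and RANKL was just above WENRC. The differences were -0.46 in RANKL against ENRI (limma adjusted p 0.0893), 0.09 in RANKL against WENRC (0.742) and -0.55 in WENRC against ENRI (0.0663). Both mice showed the last direction, at -0.43 and -0.67, and with the mouse as a block it was called (limma adjusted p 0.0409, range over 15 alternatives 0.00622 to 0.557).

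**Figure D3:**
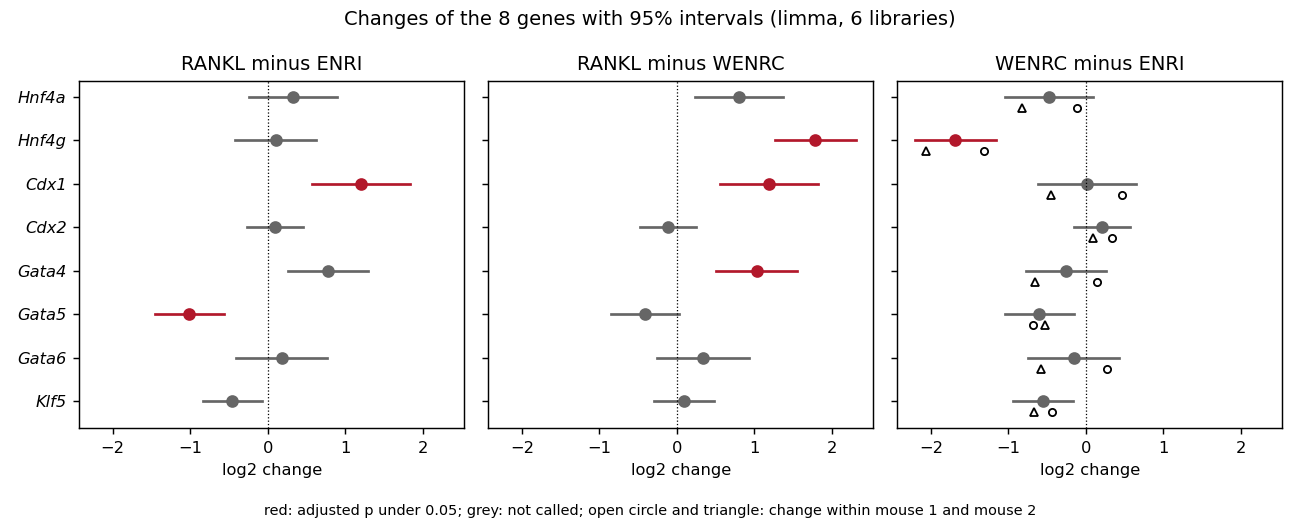
Change of each gene on the log2 scale with its 95% interval in the 3 comparisons, red where the adjusted p was under 0.05, and open symbols for the change within mouse 1 and mouse 2. The interval of Hnf4g lies clear of 0 in RANKL minus WENRC (1.79) and in WENRC minus ENRI (-1.68), and covers 0 in RANKL minus ENRI.

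These calls rest on few libraries. The error of each comparison pools the spread of all 3 cultures, so that of WENRC against ENRI also draws on the RANKL libraries, which differed least. With only the 4 ENRI and WENRC libraries, limma called 0 of all tested genes in that comparison. Leaving out either RANKL library ended every call among the 8 genes in all 3 comparisons, while 2 to 4 of the 8 still had an unadjusted p under 0.05. Without WENRC library 1 the calls in RANKL against ENRI, RANKL against WENRC and WENRC against ENRI numbered 1, 1 and 0, and without WENRC library 2 they numbered 1, 0 and 0. Without ENRI library 1 they numbered 4, 4 and 4, and without ENRI library 2 they numbered 5, 4 and 2. The share of all tested genes called went the same way, at 42.1%, 31.1% and 40.1% without ENRI library 1, 26.8%, 31.3% and 18.8% without ENRI library 2, and at most 0.67% without either RANKL library. For Hnf4g, leaving out 1 library at a time moved the change over WENRC between 1.56 and 2.02 and the limma adjusted p between 0.000392 and 0.127. For Gata5 against ENRI the change stayed between -1.20 and -0.82, with adjusted p from 0.00672 to 0.132.

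Set side by side per kilobase, Klf5 was the most transcribed of the 8 genes in every culture, with mean log2 values per kb of 7.63 in RANKL, 8.08 in ENRI and 7.53 in WENRC. It stood above 97.7% of tested genes in every library. In RANKL the order went on with Hnf4a at 7.23, Gata4 at 7.01, Cdx2 at 6.58, Cdx1 at 6.42, Gata6 at 6.16, Hnf4g at 5.85 and Gata5 at 4.48. In WENRC Hnf4g was last, at 4.07, below Gata5 at 4.89. Its mean percentile among tested genes was 90.7 in RANKL, 88.7 in ENRI and 59.8 in WENRC. Cdx2 stayed between the percentiles 93.6 and 96.1 in all 6 libraries, while Cdx1 ranged from 75.1 to 94.99. Neighbours such as Cdx2 and Cdx1 in RANKL, or Cdx1 and Gata5 in ENRI (5.22 and 5.49), differed by less than the SD of Cdx1 (0.17 and 0.52).

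Of 20 other Cdx, Gata and Klf genes 14 were tested, and Cdx4, Gata1, Gata2, Gata3, Klf14 and Klf17 were under the filter. None of the 14 was called higher in any comparison. Lower calls numbered 5 in RANKL against ENRI, 1 in RANKL against WENRC and 3 in WENRC against ENRI. Klf4, a factor of differentiated epithelial cells, was -1.82 against ENRI (limma adjusted p 0.0142), and Klf6, Klf3 and Klf2 were at -1.42, -1.35 and -1.25. Against WENRC the gene called was Klf9, at -1.43. In WENRC against ENRI, Klf4 was at -1.53, Klf6 at -1.03 and Klf3 at -1.003.

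Factors known to work with the 8 gave 3 higher and 4 lower calls of 22 in RANKL against ENRI. Onecut2, a cut homeobox factor, was 1.05 higher than in ENRI and 1.61 higher than in WENRC, and Tcf7l2, the Wnt effector of the crypt, was 1.25 higher than in WENRC. Elf3, an epithelial ETS factor, was lower in RANKL than in both, by -0.95 and -0.79. Ppara, a nuclear receptor of fatty acid breakdown, and Ppargc1a, a coactivator, were at -1.66 and -0.98 against ENRI. RANKL against WENRC had 2 higher and 1 lower call, and WENRC against ENRI 1 higher and 2 lower, with Foxa3 at 1.20, Creb3l3, a membrane-bound factor of lipid metabolism, at -3.82 and Ppara at -2.51.

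Genes known as HNF4 targets, mostly of fat transport and the brush border, were lower in WENRC than in ENRI in 16 of 20 cases, with a list median of -2.05. Apoa1, Apoa4 and Apoc3, which encode apolipoproteins, were at -5.50, -5.02 and -3.31, and Apob at -2.80. RANKL stood between the others: 12 of 20 were lower than in ENRI (median -1.05) and 6 were higher than in WENRC (median 0.54), with none the other way. Apoa1, Apoa4 and Apoc3 were 4.57, 3.97 and 1.98 above WENRC, and Cdhr2, an intermicrovillar cadherin, 1.19. Fabp2, a fatty acid binding protein, was at -4.76 against ENRI, a comparison in which Hnf4g and Hnf4a were at 0.10 and 0.33 and not called. Mttp and Apob were at -2.71 and -2.10 in that comparison. Of the 20 genes, 6 also stand on the enterocyte marker list, whose summed level is given above with Hnf4g, and its part in these changes was not tested.

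Of 12 CDX targets, 10 were lower in WENRC than in ENRI (median -1.21), 6 lower in RANKL than in ENRI (-0.94) and 4 higher in RANKL than in WENRC (0.44), again with none the other way. The peptide transporter Slc15a1 was at -2.97 in RANKL against ENRI, 1.37 in RANKL against WENRC and -4.34 in WENRC against ENRI. Muc2, the goblet cell mucin, was 3.25 above WENRC, Sis, the sucrase-isomaltase of the brush border, 2.42 and Alpi, its alkaline phosphatase, 2.26. Mep1a, Lgals4 and Lct were at -1.81, -0.98 and -0.96 against ENRI. In that comparison Cdx1 itself was higher. The enterocyte marker list holds 4 of these 12 genes.

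Genes tied to GATA4 along the gut had 9 of 10 members tested. In RANKL against ENRI 1 was higher and 4 lower, in RANKL against WENRC 2 were higher, and in WENRC against ENRI 4 were lower (medians -0.96, 0.34 and -1.50). Ileal genes such as Slc10a2, Fabp6 and Fgf15 stand on this list beside jejunal ones. Its counts and medians thus mix genes that GATA4 is known to hold on and off. Slc10a2 and Fgf15 were at 0.31 and -0.24 in RANKL against ENRI and called in no comparison, and Fabp6 was under the filter. Cubn, an endocytic receptor, was 2.51 above WENRC. Fabp1, Abcg5 and Abcg8, the last a pair of sterol transporters whose genes overlap in position, were at -2.99, -2.04 and -1.99 against ENRI. The enterocyte marker list holds 3 of these 10 genes. Fabp1 and Apoa4 are also counted among the HNF4 targets and Lct among the CDX targets, so these lists are not separate. Of 10 crypt genes linked to KLF5, 4 were higher and 1 lower in WENRC than in ENRI, 1 higher and 3 lower in RANKL than in ENRI, and 3 lower in RANKL than in WENRC. The list medians were 1.01, 0.51 and -0.72, so that in RANKL against ENRI the median went the other way from the balance of calls. Lgr5, the stem cell receptor, was 3.12 higher in WENRC than in ENRI and at -3.02 in RANKL against WENRC, while Mki67, a gene of dividing cells, was 1.47 higher in RANKL than in ENRI. Krt19, Egr1 and Pcna were at -2.002, -1.85 and -1.36 against ENRI.

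**Figure D4:**
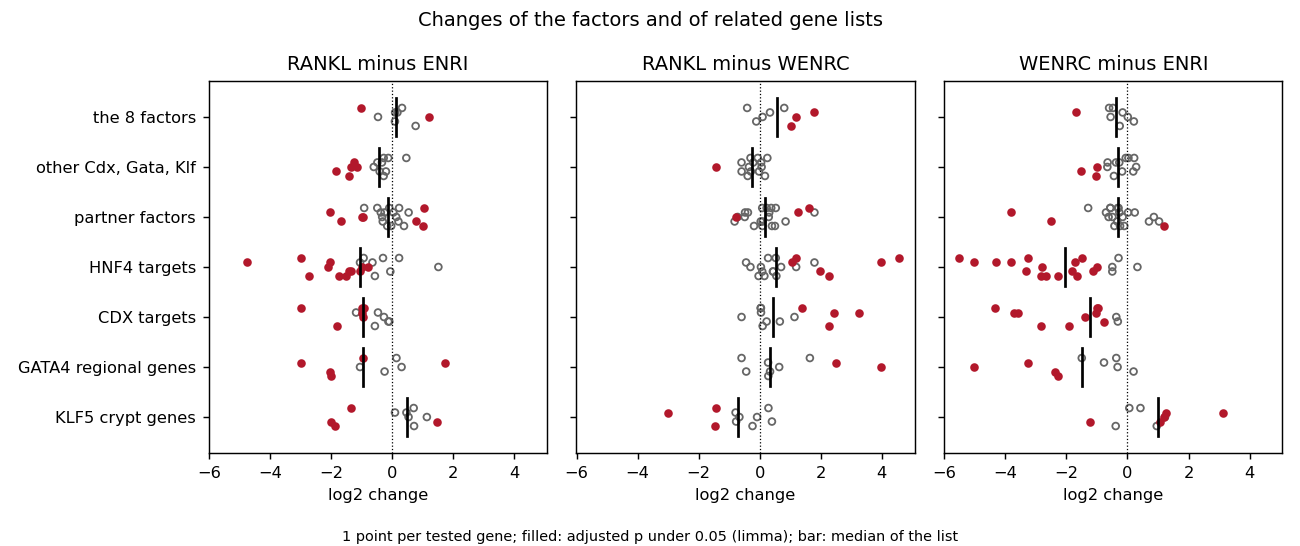
Changes on the log2 scale of the 8 factors and of the related lists, 1 point per tested gene, filled where the adjusted p was under 0.05, with the list median as a bar. The HNF4 target median is -1.05 in RANKL minus ENRI, 0.54 in RANKL minus WENRC and -2.05 in WENRC minus ENRI, while the median of the 8 factors is 0.14, 0.57 and -0.36.

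For each of the 8 genes, the tested genes whose 6 library values followed it most closely were found by Pearson r, as a description over 6 libraries that share their normalisation. Samd14 (r = 0.998) and the alcohol dehydrogenase gene Adh4 (0.996) followed Hnf4g. C130046K22Rik (0.998) and Arsg (0.996) followed Hnf4a. Ptprn and Extl1 (both 0.991) followed Cdx1, and Rhbdd3 (0.978) and Ldhal6b (0.965) followed Cdx2. Pdgfrb (0.993) and Adcy9 (0.992) followed Gata4, Sp3os (0.9996) and Angptl1 (0.993) Gata5, Coq3 (0.999) and Tfr2 (0.989) Gata6, and Itpkc (0.999) and Mapk6 (0.998) Klf5. With so few libraries an r over 0.9 was reached with Klf5 by 7.34% of all tested genes, with Hnf4g by 4.36% and with Cdx2 by 0.211%.

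In the H3K27me3 tables, none of the 8 genes carried a differential region. The authors list regions with more of the mark in pooled RANKL than in WENRC (35798 regions) and regions with more in WENRC (13607), each with its tags, fold and p. Without replicates in these tables there is no check on spread, and the table values are the authors'. Neither table had a region over the body of any of the 8 genes or within 5 kb of it. Over all 24505 listed genes, tested or not, 28.1% had a RANKL-higher and 13.6% a WENRC-higher region there. With only 8 genes, the absence was not tested against these shares. Within 5 kb of the start, the shares of all genes were 19.1% and 5.44%, and no member was among them. A region absent from both tables was not called different, which says nothing of how much of the mark it carries.

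The authors' annotation assigned 4 intergenic regions to the 8 genes. By that count 1 of 8 genes had a RANKL-higher region, beside 33.7% of all listed genes, and 2 of 8 a WENRC-higher region, beside 24.0%. Both RANKL-higher regions belonged to Gata5, on mm9 chromosome 2. The one at 180089244 to 180089885, at -20.2 kb from the start, held 23 RANKL tags (95% Poisson interval 14.6 to 34.5) and 5.4 scaled WENRC tags, with the authors' fold of 4.26 and p of 1.58e-08. The one at 180093894 to 180094526, at -24.8 kb, held 26 tags (17.0 to 38.1) and 4.5 scaled WENRC tags, with a fold of 5.78 and a p of 3.2e-12. The GRO-seq difference of Gata5 in RANKL against WENRC was -0.41 and not called. The intervals cover counting error only.

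Hnf4g and Klf5 had 1 WENRC-higher region each. That of Hnf4g lay on chromosome 3 at 3381548 to 3382273, at -126 kb from the start, with 22.5 scaled WENRC tags and 3 RANKL tags (0.619 to 8.77), the authors' fold of 7.5 and p of 1.6e-12. That of Klf5 lay on chromosome 14 at 99840093 to 99840593, at 142 kb from the start, with 21.6 scaled WENRC tags, 7 RANKL tags (2.81 to 14.4), a fold of 3.09 and a p of 1.45e-05. For Hnf4g the culture with more of the mark in that far region was the one with the lower GRO-seq value. For Klf5 the GRO-seq values of RANKL and WENRC differed by 0.09. The nearest region to any other member was a RANKL-higher one 11.3 kb from the start of Cdx1, which the authors annotate to its neighbour Pdgfrb. There the culture with more of the mark was the one with the higher GRO-seq values. Cdx1 was 1.19 and Pdgfrb 2.45 higher in RANKL than in WENRC. A link between these far regions and the GRO-seq values was not tested.

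Among the 20 other Cdx, Gata and Klf genes, 6 had a RANKL-higher region and 6 a WENRC-higher one over the body or within 5 kb. Of all listed genes, 28.1% had a RANKL-higher and 13.6% a WENRC-higher region there. Klf8, an X-linked gene, had the most, with 14 RANKL-higher regions and 1 WENRC-higher, followed by Klf15 with 4 RANKL-higher and Klf12 with 4 WENRC-higher. Xist and Ddx3y differed between GRO-seq libraries, as given above. The part of such a difference in regions of X-linked genes was not tested. Gata2 had 2 RANKL-higher regions there, Gata3 2 with 1 WENRC-higher, Klf4 1 WENRC-higher, and Cdx4, which is X-linked and was not tested in GRO-seq, 2 WENRC-higher. In the lists of known targets, 2 of 20 HNF4 targets, 2 of 12 CDX targets, 1 of 10 GATA4-linked genes and 1 of 10 KLF5-linked genes had a RANKL-higher region. WENRC-higher regions stood at 1, 2, 1 and 0 genes of these lists. The target counts use the same distance and stand beside the same shares of all listed genes.

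**Figure D5:**
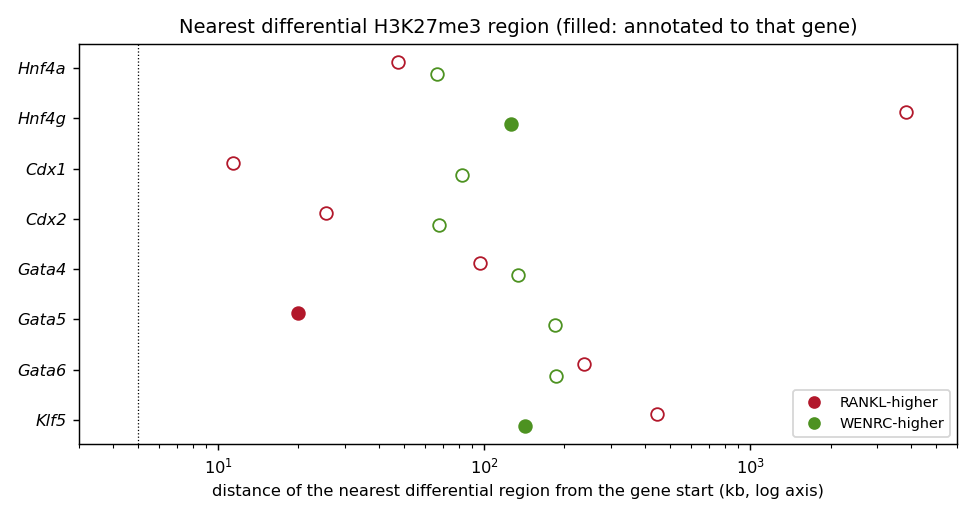
Distance from the start of each gene to the nearest edge of a differential H3K27me3 region (kb, log axis) in the RANKL-higher and the WENRC-higher table, filled where the authors annotate the region to that gene, with 5 kb as a dotted line. No point lies left of the line, and the nearest are at 11.3 kb for Cdx1 and 19.9 kb for Gata5.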

How the data were processed

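The deposited GRO-seq table gives log2 values, normalised between libraries by the authors. Per the file headers they stem from reads that HOMER counted over the full span of each RefSeq gene (mm9), with 1 transcript kept per gene. The transform is not named and was judged from the shape of the values. The submitters' processing notes name Bowtie2 2.3.4.1, HOMER and DESeq2 without roles. GRO-seq depth is unknown and strand handling is not given in the sources used here. Per the file headers, the authors called H3K27me3 regions in 1 culture with the other as control. Those tables hold the deposited tag count of pooled RANKL, the scaled WENRC signal (each tag weighs 0.9), the fold as a ratio, and the p-value of each region. Their GRO-seq fold changes, whose sign was turned, and adjusted p-values appear only as the authors' deposited table.

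All 6 libraries entered 1 limma fit (limma 3.58.1 with trend, R 4.3.3) of 3 culture means. The SE of a change thus pools the spread of all 3 cultures and is the same for a gene in every comparison. Genes reaching log2(10) in at least 2 libraries were tested, 16563 of 24505, and Benjamini-Hochberg adjusted p-values under 0.05 were calls. Levels per kb are the log2 value minus log2 of gene length. Poisson intervals are exact at 95% and cover counting error. The code was tested on simulated data. Named are all 8 genes, up to 4 called genes with the smallest p per list and comparison, and the 2 genes of highest Pearson r per member whose culture means span at least 0.5 of its range. A gene that the rule names is not reported here. The antisense genes, the ileal genes of the GATA4 list and the genes named beside H3K27me3 regions were added after their values were seen. The 8 genes and all lists were chosen with earlier results of these data known. The ENRI and WENRC libraries are paired by mouse number, per the labels, and their deviations correlated across genes (r = 0.414). RANKL numbers pair nothing. 0 columns of per-sample values lacked a sample. Alternatives were 4-library fits, the mouse block, other scalings, no filter, no trend, culture weights, each library left out, and the authors' test.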

Additional observations from a re-analysis of the deposited data

How the results depend on the processing

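Of the 8 genes, the count called in RANKL against ENRI went from 2 to 1 with only the 4 libraries compared, with or without a block, and ran from 0 to 5 when 1 library was left out. In RANKL against WENRC it went from 3 to 1 under quantile normalization and to 5 in the authors' deposited table, and ran from 0 to 4 when 1 library was left out. In WENRC against ENRI it went from 1 to 2 with the mouse block, to 0 with only the 4 libraries with or without the block (limma, where 3 and 2 had an unadjusted p under 0.05, and the authors' table calls 1), and ran from 0 to 4 when 1 library was left out. In 4-library fits with RANKL the block pairs a RANKL replicate number with a mouse number; these share only a number (r of deviations across genes -0.205 with ENRI and -0.323 with WENRC). Where 1 library was left out, its partner was assumed to vary like the other cultures.

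Calls in the related lists numbered 35 in RANKL against ENRI, 22 with the number as a block and only 4 libraries, and 0 to 54 with 1 library left out. In RANKL against WENRC there were 17, and 37 with only 4 libraries, 34 with the block and only 4 libraries, 37 with 1 weight per culture, 36 in the authors' table, and 0 to 37 with 1 library left out. In WENRC against ENRI there were 36, and 0 with only 4 libraries (44 at an unadjusted limma p under 0.05), 7 with the block and only 4 libraries, and 0 to 57 with 1 library left out. Over all tested genes the calls were 3464, 2012 and 2416, and ranged over the alternatives from 64 to 6966, from 0 to 5194 and from 0 to 6650. With only 4 libraries they were 1925, 5194 and 0, with the mouse block 4749, 2945 and 3545, and with the block and only 4 libraries 1423, 4686 and 124. With 1 weight per culture they were 3091, 5120 and 1635, and by the adjusted p in the authors' deposited table they were 3244, 4604 and 2076.

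Among the 8 genes, signs turned only for differences that were not called. Under quantile normalization, RANKL against WENRC turned to -0.040 for Gata6 and -0.34 for Klf5, and WENRC against ENRI to 0.12 for Hnf4a, 0.17 for Gata4 and 0.18 for Gata6. Recentring on upper quartiles, which moved the median of all genes in RANKL against WENRC from -0.01 to -0.12, turned Klf5 to -0.021. With 1 library left out, RANKL against ENRI ran from -0.041 to 0.25 for Hnf4g, from -0.018 to 0.21 for Cdx2 and from -0.17 to 0.52 for Gata6. WENRC against ENRI ran from -0.36 to 0.38 for Cdx1 and from -0.50 to 0.19 for Gata6, and the authors' value for Cdx1 was -0.033. Without division by length, Hnf4g minus Hnf4a in ENRI was 0.045, and Cdx1 minus Cdx2 was 1.29 in RANKL and 0.19 in ENRI. The 4 H3K27me3 regions of the 8 genes became 3 at a fold of at least 4, and 0 over gene bodies or within 5 kb of the start. The cause of these shifts was not tested. Among 360 alternative values of the 8 genes, 298 kept direction and side of the threshold, 28 lost a call, 21 gained one and 13 turned sign. Fits with only 4 libraries, a block, no filter, no trend or culture weights leave the change itself as it was. The same holds where a library of the third culture was left out. In all these fits a sign could not turn, so the count of kept directions is no measure of stability.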
